A study of Mus musculus with 10 samples.

Results

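The nuclear tRNA-Val fragments in mouse sperm came from 3 tRNAs, tRNA-Val-AAC, tRNA-Val-CAC and tRNA-Val-TAC, of the 51 nuclear tRNA anticodons listed in the files. They were chosen by name. Every read that the files assigned to a mature tRNA with 1 of these anticodons was taken, with the part of the tRNA it came from. The files list 5′ ends, 3′ ends and CCA ends, and what was left of a tRNA after these was counted as internal. This gave 12 features of the 203 nuclear tRNA features, and 11 of the 12 passed the filter on low counts. The 3′ end of tRNA-Val-TAC did not pass, with between 0 and 16 reads per library. No tRNA-Val feature passed the thresholds of the study between the diets. Each feature sums the reads of 1 part of 1 tRNA, and single fragment sequences were not tested here. By total level, the 3 tRNAs kept the same order in every library.

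Small RNA was sequenced from spermatozoa of C57BL/6J male mice, 5 samples from F0 mice on a control diet with 10% of kcal from fat (CD-F0) and 5 from F0 mice on a high-fat diet with 42% (HFD-F0). Feeding began at 4 weeks of age and lasted 10 weeks, and sperm were taken from the epididymal tail and vas deferens. The labels name no mutant allele in either group. The comparison asked whether diet changed the small RNA that sperm carry. The labels number the samples without saying that each came from 1 animal, so the p-values measure the spread between these samples.

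A tRNA carries an amino acid to the ribosome and reads a codon through the 3 bases of its anticodon, which the names here give in DNA letters. Valine is carried by several isoacceptors, tRNAs with different anticodons for the same amino acid. The anticodon CAC pairs with the codon GUG, TAC pairs with GUA, and AAC, whose first base is converted to inosine in the mature tRNA, reads GUU and GUC. Cleavage of mature tRNAs gives tRNA-derived small RNAs (tsRNAs), which are abundant in sperm, and those from the 5′ side of the molecule are the best known there. The CCA tail, to which the amino acid is attached, is added to the 3′ end after transcription and is not encoded in the genes of nuclear tRNAs.

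RefSeq (GRCm38.p6) holds 22 numbered nuclear tRNA-Val genes on 9 chromosomes, each 72 or 73 bases long. The AAC anticodon has 8 of them, CAC has 11 and TAC has 3. Chromosome 13 holds 10, of which 5 are AAC and 5 are CAC, and 8 of these lie between positions 23285401 and 23446214. The TAC genes lie elsewhere, with n-TVtac1 from 12011931 to 12012003 and n-TVtac2 from 12012266 to 12012338 on chromosome 19, and n-TVtac3 from 160766110 to 160766182 on chromosome X. The gene n-TVcac9 is shown because it displays where the parts of tRNA-Val-CAC lie. It covers chr13:23446142-23446214 on the minus strand, 171 to 243 bases upstream of the annotated start of Gm46404 on the same strand. Its 73 bases are given 5′ to 3′ from the GRCm38.p6 sequence with the anticodon in capitals.
n-TVcac9 (tRNA-Val-CAC): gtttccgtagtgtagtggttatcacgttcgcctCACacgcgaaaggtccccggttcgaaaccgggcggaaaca
The anticodon occupies bases 34 to 36, so that 33 bases precede it. The study cut RNA of 18 to 30 nt from the gel, and a fragment of the first 30 bases ends before the anticodon. In the genome the gene is followed by gtt, not by cca.

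The libraries held between 29558751 and 32178088 clean reads, and 92.6% to 95.2% of them were annotated to an RNA class. Of the clean reads, 64.9% to 75.2% matched the genome in CD-F0 and 73.3% to 74.7% in HFD-F0. No pair of libraries was near to sampling noise, with a chi-square per degree of freedom of at least 508 over the 45 pairs. Among miRNA markers, the summed level of 3 spermatogenic hairpins was 7272 to 15059 RPM, that is, reads scaled to 1000000 clean reads of the library. The summed levels were 3969 to 9463 RPM for 6 epithelial hairpins, 15876 to 36525 RPM for 6 muscle hairpins and 3249 to 6033 RPM for 7 blood and immune hairpins, and no hairpin was at 0 in every library. The means were higher in HFD-F0 for 2 of 3 spermatogenic, 6 of 6 epithelial, 4 of 6 muscle and 6 of 7 blood hairpins. The part of these cells in the tRNA-Val values was not tested, and fewer cells of a type cannot be told apart from less RNA per cell in such bulk samples.

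The tRNA-Val reads made up 6.25% ± 1.06 of all nuclear tRNA reads in the CD-F0 group and 6.28% ± 0.43 in the HFD-F0 group (SD, n = 5 each). By mean level over the 10 libraries, valine ranked 7th of the 23 groups that the files form by amino acid, with initiator methionine, selenocysteine and suppressor tRNAs as groups of their own. It ranked 8th for 5′ ends and 2nd for internal reads. Accordingly, tRNA-Val gave 5.14% of all nuclear 5′ end reads and 10.2% of all nuclear internal reads over the 10 libraries. The order of the isoacceptors was CAC, AAC and TAC in every library. tRNA-Val-CAC took 53.6% ± 0.949 of the tRNA-Val reads in CD-F0 and 54.5% ± 1.50 in HFD-F0, tRNA-Val-AAC took 37.8% ± 0.661 and 36.3% ± 1.16, and tRNA-Val-TAC took 8.58% ± 1.27 and 9.21% ± 0.642 (SD, n = 5 each). Of the 48 nuclear tRNAs with at least 1000 reads in every library, CAC was the 9th, AAC the 17th and TAC the 32nd by level. The internal reads of CAC and AAC stood higher in that order, at rank 3 and rank 7.

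By mean level, the 5′ end was the main source of reads of each tRNA-Val. For tRNA-Val-TAC in HFD-F0 sample 1, internal reads stood higher, at 664.9 RPM beside 618.2 RPM for the 5′ end. For tRNA-Val-CAC, the largest of the members, the level of the 5′ end in CD-F0 samples 1 to 5 was 3645, 5144, 5775, 6331 and 5753 RPM. In HFD-F0 samples 1 to 5 it was 3548, 6049, 5595, 5410 and 4914 RPM. The groups overlapped over nearly their whole range, and the sample numbered 1 was the lowest of each group. For tRNA-Val-AAC the 5′ end stood at 2708, 3494, 4068, 4225 and 3885 RPM in CD-F0 and at 2522, 3747, 3620, 3293 and 3172 RPM in HFD-F0. These values also overlapped, again with sample 1 of each group at the bottom. For tRNA-Val-TAC, which has the fewest genes, the 5′ end stood at 759.8, 703.4, 731.8, 760.4 and 888.0 RPM in CD-F0 and at 618.2, 926.9, 807.7, 797.8 and 960.2 RPM in HFD-F0. Here 2 HFD-F0 samples lay above every CD-F0 sample and 1 lay below them all. The lowest value rested on 19785 reads, with a 95% Wilson interval of 609.7 to 626.9 RPM. Intervals cover counting error only, and the sources do not say whether reads with the same molecular identifier were collapsed.

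Internal reads were the next largest part by mean level. Their level ranged from 2203 to 3399 RPM in CD-F0 and from 2455 to 3844 RPM in HFD-F0 for CAC, from 1482 to 2548 RPM and from 1659 to 2645 RPM for AAC, and from 424.9 to 588.3 RPM and from 463.9 to 664.9 RPM for TAC. The groups overlapped for each of the 3. The CCA ends, named for the added tail, were far fewer. They ranged over all 10 libraries from 67.5 to 136.2 RPM for CAC, from 56.6 to 113.9 RPM for AAC and from 12.1 to 42.7 RPM for TAC. For each tRNA both the lowest and the highest CCA-end level belonged to HFD-F0, in samples 1 and 3. The 3′ ends without the tail were the rarest part, from 3.36 to 6.71 RPM for CAC and from 2.87 to 5.65 RPM for AAC. The 3′ end of tRNA-Val-TAC was listed at 0 in 2 CD-F0 libraries, and the largest value was 0.507 RPM. A count of 0 in the first CD-F0 library allows a level of up to 0.0986 RPM if 3 reads are taken as the limit, and the upper end of its 95% Wilson interval is 0.126 RPM.

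**Figure D1:**
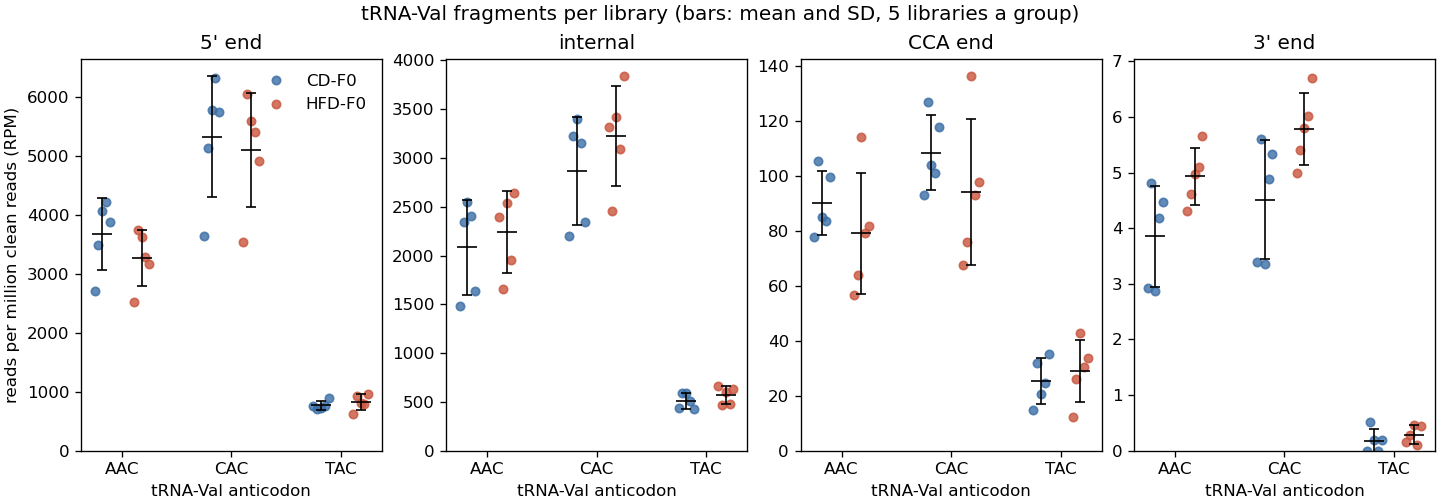
Level of each tRNA-Val part in RPM on linear axes that start at 0, 1 panel per part, with each point a library and the bars the mean and SD of 5 libraries. The CD-F0 and HFD-F0 points overlap in every panel, and TAC lies below AAC and CAC throughout.

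In edgeR's quasi-likelihood test over 814 features, none of the 11 tRNA-Val features passed the thresholds (p at most 0.05 and a log2 fold change of at least 1 in size), beside 30 of the 814, or 3.69%. None had an unadjusted p at most 0.05, beside 83 of the 814, or 10.2%. DESeq2 and edgeR's exact test also gave 0 of 11 past both thresholds, beside 28 and 38 of the 814. The lowest unadjusted p of the 11 was 0.195 in DESeq2 and 0.241 in the exact test. The log2 fold changes, HFD-F0 over CD-F0, lay between -0.28 and 0.27 with a median of 0.02, and 7 were above 0 and 4 below. For the 182 features of the other nuclear tRNAs the median was 0.01, with 3 up-regulated and 0 down-regulated, and over all 814 features it was -0.01.

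The 5′ ends had log2 fold changes of -0.24 (SE 0.18) for tRNA-Val-AAC, -0.13 (SE 0.20) for tRNA-Val-CAC and 0.02 (SE 0.18) for tRNA-Val-TAC. Their p-values were 0.193, 0.526 and 0.925 by edgeR's quasi-likelihood test, and the values adjusted over all features were 0.675, 0.908 and 0.991. The 5′ ends of the other 46 nuclear tRNAs that were tested had a median log2 fold change of -0.12, with 33 of the 46 below 0. The internal features had log2 fold changes of 0.01 (SE 0.18), 0.08 (SE 0.16) and 0.06 (SE 0.14) for AAC, CAC and TAC. The CCA ends of AAC and CAC stood at -0.27 (SE 0.21) and -0.28 (SE 0.21), where the 46 other nuclear CCA ends had a median of 0.11, and the CCA end of TAC stood at 0.14 with an SE of 0.34. The adjusted p-values of the CCA ends were 0.702, 0.675 and 0.938 in edgeR's test, so that the values for AAC and CAC lay on the other side of 0 from that median without passing the test. Sample 3 of HFD-F0, the highest of that group, weighed on both. Without it they were -0.43 for AAC and -0.45 for CAC, with unadjusted p = 0.0603 and 0.0491 in edgeR's quasi-likelihood test. The 3′ ends of AAC and CAC both had a log2 fold change of 0.27 (SE 0.21), and their adjusted p in edgeR's test was 0.696. The signs of the TAC 5′ end and CCA end and of the AAC, CAC and TAC internal features turned in at least 1 alternative processing or without 1 library, while those of the other 6 features did not.

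**Figure D2:**
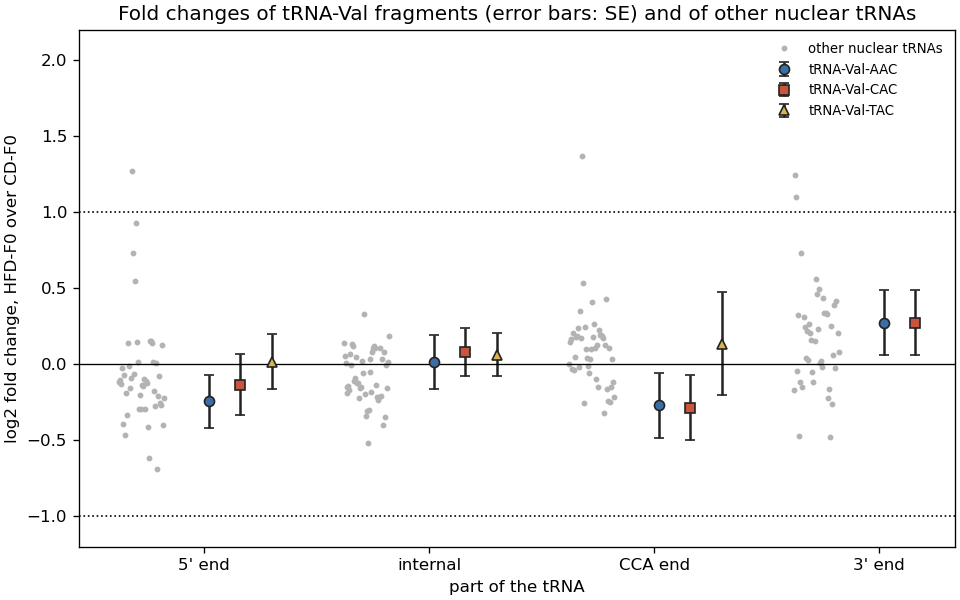
Log2 fold change of each tested tRNA-Val feature, HFD-F0 over CD-F0, with its SE, beside the fold changes of other nuclear tRNAs (grey points) for the same part of the tRNA. The 11 tRNA-Val values stay between -0.28 and 0.27, inside the dotted lines at a log2 fold change of 1 in size.

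Summed over their parts, no member passed the test between the diets. The total of tRNA-Val-CAC was 8308 ± 1434 RPM in CD-F0 and 8428 ± 866 RPM in HFD-F0, and that of tRNA-Val-AAC was 5853 ± 1006 and 5595 ± 506 RPM (SD, n = 5 each). The two-sided exact permutation test, which runs through every way to assign 5 and 5 samples, gave p = 0.865 and p = 0.619, and the smallest p this design allows is 0.00794. The total of tRNA-Val-TAC was 1302 ± 56.2 RPM in CD-F0 and 1420 ± 135 RPM in HFD-F0, with 3 of 5 HFD-F0 samples above every CD-F0 sample (exact permutation p = 0.103, adjusted p = 0.413 over 4 totals). Relative to nuclear tRNA reads in place of clean reads, the exact p for TAC was 0.0238 and the adjusted value 0.0952. The sum of the 3 was 15464 ± 2476 RPM in CD-F0 and 15444 ± 1416 RPM in HFD-F0.

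In CD-F0 samples 1 to 5 the 5′ end held 61.3%, 60.5%, 62.2%, 66.0% and 70.0% of the tRNA-Val-CAC reads, and in HFD-F0 samples 1 to 5 it held 51.2%, 70.5%, 61.1%, 62.9% and 55.4%. The HFD-F0 samples thus spanned both the lowest and the highest value. The shares of tRNA-Val-AAC ran from 58.7% to 69.1% in CD-F0 and from 50.6% to 68.4% in HFD-F0, and those of tRNA-Val-TAC from 53.2% to 65.9% and from 47.7% to 65.4%. Sample 1 of HFD-F0 had the lowest 5′ end share and the highest internal share for each of the 3 tRNAs. The means in CD-F0 and HFD-F0 were 63.0% and 58.4% for AAC, 64.0% and 60.2% for CAC and 59.1% and 57.8% for TAC, and the exact permutation test gave p = 0.230, 0.357 and 0.754. Single HFD-F0 samples moved these differences. For AAC the difference of -4.53 points was -2.58 without sample 1 and -7.03 without sample 2 (exact p = 0.0476, adjusted 0.190), and for CAC the difference of -3.79 points was -1.53 and -6.35. The internal shares were 35.4% and 40.1% for AAC (exact p = 0.230), 34.6% and 38.6% for CAC (exact p = 0.317) and 39.0% and 40.2% for TAC (exact p = 0.770). CCA ends held between 0.883% and 2.94% of the reads of a member in any library. Their mean shares in CD-F0 and HFD-F0 were 1.57% and 1.40% for AAC, 1.33% and 1.11% for CAC and 1.93% and 2.02% for TAC (exact p = 0.357, 0.151 and 0.841).

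Of the 12 shares compared by diet over all 10 samples, the 3′ end shares of AAC and CAC had an unadjusted p below 0.05, and neither held after adjustment over the 12. For tRNA-Val-AAC it was 0.0683%, 0.0808%, 0.0428%, 0.0623% and 0.0796% in CD-F0 samples 1 to 5 and 0.0865%, 0.0844%, 0.0792%, 0.0955% and 0.0957% in HFD-F0 samples 1 to 5. In 4 of 5 HFD-F0 samples it was above every CD-F0 sample. The exact permutation p was 0.0238 and the adjusted value 0.286. For tRNA-Val-CAC the means were 0.0550% and 0.0688% (exact p = 0.0476, adjusted 0.286), and for tRNA-Val-TAC it was 0.0134% and 0.0196% (exact p = 0.476). The AAC and CAC values were not independent, as the ratios of their reads show further on. Over all nuclear tRNAs the 3′ end share was 0.227% ± 0.0392 in CD-F0 and 0.271% ± 0.0512 in HFD-F0, beside 0.0558% ± 0.0128 and 0.0713% ± 0.00489 for the 3 tRNA-Val (SD, n = 5 each).

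**Figure D3:**
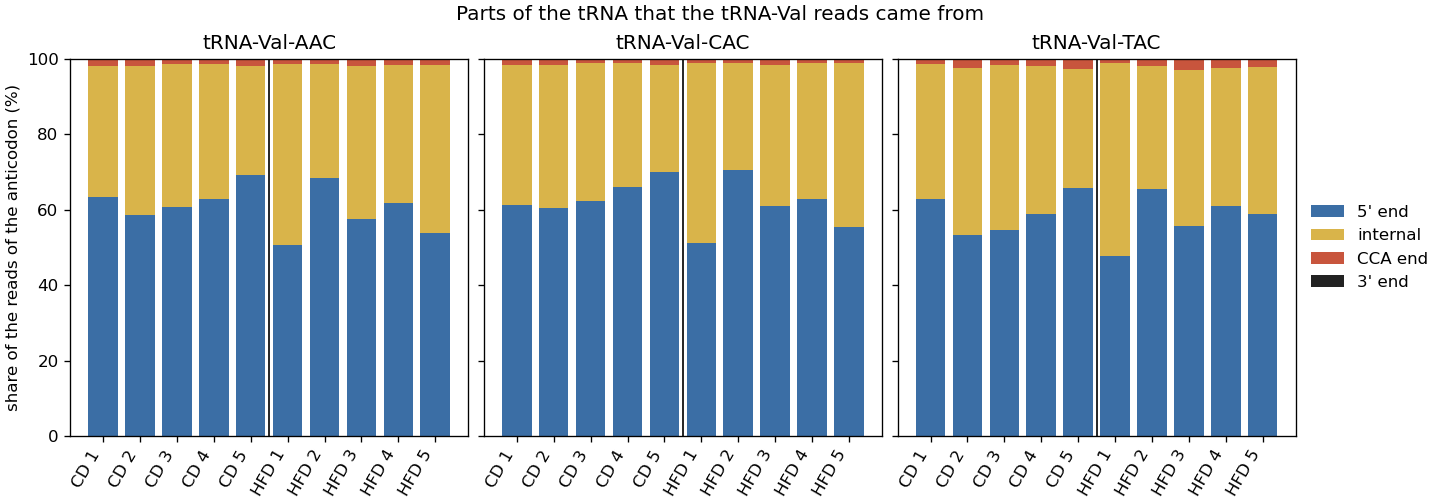
Share of the reads of each isoacceptor, in percent, that came from its 5′ end, internal part, CCA end and 3′ end, 1 bar per library. The 5′ end takes 47.7% to 70.5% of a bar, the internal part nearly all of the rest, and the 3′ ends, under 0.1%, are too few to see.

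The 5′ end shares of the isoacceptors were compared within each library. That of tRNA-Val-CAC exceeded that of tRNA-Val-AAC by 1.42 percentage points (SD 1.54, higher in 9 of 10 samples) and that of tRNA-Val-TAC by 3.70 points (SD 3.78, higher in 8 of 10 samples). The exact sign-flip permutation over the 10 samples, two-sided, gave p = 0.0234 and p = 0.0176, and both were 0.0352 after adjustment over the 3 pairs. The share of AAC exceeded that of TAC by 2.28 points (SD 3.21, 9 of 10 samples, exact p = 0.0527). CAC had the lowest share of the 3 in CD-F0 sample 1, where CAC minus AAC was -2.09 points. TAC had the highest share of the 3 in HFD-F0 sample 5, where CAC minus TAC was -3.54 points and AAC minus TAC -5.27 points. Both differences of CAC were near the threshold. Without any 1 of CD-F0 samples 2, 3, 4 and 5 and HFD-F0 samples 1, 2, 3 and 4, their adjusted exact p was 0.0527 to 0.0703, with differences of 1.19 to 1.51 points from AAC and 3.26 to 3.91 points from TAC. The share of CAC itself had an SD of 5.93 points between libraries. Among the 48 nuclear tRNAs the 5′ end shares of CAC, AAC and TAC were neighbours at ranks 18, 19 and 20.

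The comparison with 3 nuclear tRNAs known for fragments in sperm placed tRNA-Val between them. The 5′ end held 61.3% of the tRNA-Val reads over the 10 libraries, 37.9% of those of tRNA-Gly-GCC, 46.0% of those of tRNA-Glu-CTC and 93.3% of those of tRNA-Lys-CTT. The difference from tRNA-Gly-GCC was 23.4 points (SD 13.8, higher in 10 of 10 samples) and that from tRNA-Lys-CTT -32.0 points (SD 6.50, higher in 0 of 10). The exact sign-flip permutation gave p = 0.00195 for both, the smallest value that 10 samples allow, and 0.00293 after adjustment over the 3. The difference from tRNA-Glu-CTC was 15.3 points with an SD of 22.5, higher in 7 of 10 samples (exact p = 0.0527). The share of tRNA-Val varied less between libraries than those of Gly-GCC and Glu-CTC, with an SD of 5.76 points beside 16.4 and 25.7, and more than that of Lys-CTT, with 1.37 points. In the first library of each group the share of tRNA-Glu-CTC was 4.30% and 7.85% while that of tRNA-Val was 62.3% and 50.6%. The gaps from tRNA-Glu-CTC and tRNA-Lys-CTT were much smaller among the listed ends alone. With internal reads left out of the shares, tRNA-Val differed by 29.0 points from tRNA-Gly-GCC, 0.828 from tRNA-Glu-CTC and -1.40 from tRNA-Lys-CTT. The exact sign-flip permutation then gave p = 0.00195, 0.531 and 0.00195.

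**Figure D4:**
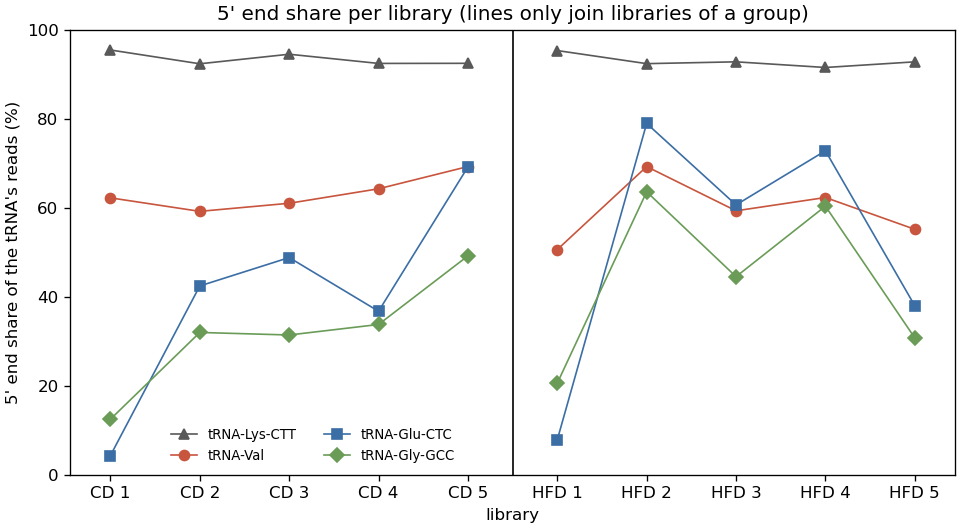
Share of the reads of each tRNA, in percent, that came from its 5′ end in each library, with the 3 tRNA-Val summed. tRNA-Val stays between 50.6% and 69.3%, below tRNA-Lys-CTT and above tRNA-Gly-GCC in each of the 10 libraries.

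The ratio of 2 isoacceptors within a library asks whether diet moved them differently. The 5′ ends of CAC stood to those of AAC as 1.44 ± 0.0618 in CD-F0 and 1.55 ± 0.0911 in HFD-F0 (SD, n = 5 each), a difference of 0.10 on the log2 scale. In 4 of 5 HFD-F0 samples the ratio was above every CD-F0 sample, but the exact permutation p was 0.0873 and the adjusted value over 3 ratios 0.179. The first HFD-F0 sample had the lowest ratio of its group, so leaving it out could only widen the difference. Without it the difference was 0.14 on the log2 scale, with exact permutation p = 0.0159 and adjusted p = 0.0476. With any other sample left out, the adjusted p of this test was 0.175 to 0.357. The ratio of CAC to TAC was 6.96 ± 1.39 and 6.22 ± 0.767, and that of AAC to TAC 4.80 ± 0.849 and 4.01 ± 0.431 (exact p = 0.381 and 0.119). Without CD-F0 sample 1 the log2 difference of AAC to TAC went from -0.25 to -0.35 (exact p = 0.0317, adjusted 0.0952) and that of CAC to TAC from -0.15 to -0.27 (exact p = 0.0635).

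The reads of AAC and CAC could not be separated to the same degree in each part. The files divide a read between the sub-classes that it matches, so most values have decimals. For the 3′ end, the ratio of AAC to CAC reads was 0.853 with a range of 0.838 to 0.865 over the 10 libraries. Its coefficient of variation was 1.01%, where counting of separate reads alone would give 11.9%. For the CCA end the ratio was 0.836, with a coefficient of variation of 1.10% beside 2.69% from counting. Both therefore varied less than 2 separately counted sets of reads would, and the AAC and CAC values for these parts count largely as 1 measurement. For the 5′ end the ratio of AAC to CAC was 0.670 with a coefficient of variation of 6.24% beside 0.397% from counting, and for the internal part 0.707 with 5.81% beside 0.512%. The log2 levels of AAC and CAC correlated over the 10 libraries with r = 0.999 for the 3′ and CCA ends, 0.969 for the internal part and 0.958 for the 5′ end, as a description of values that share reads and depth. With the 5′ end of TAC, r was 0.373 for AAC and 0.497 for CAC. The 3′ end of TAC held whole numbers in 10 of 10 libraries (to within 0.005), that is, reads that were not divided.

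**Figure D5:**
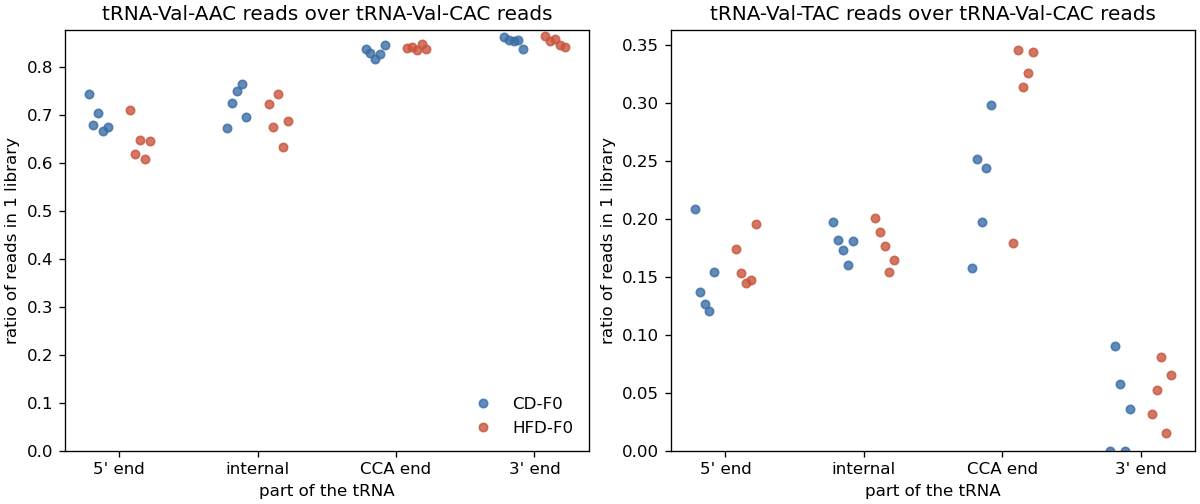
Ratio of reads within a library, of tRNA-Val-AAC to tRNA-Val-CAC on the left and of tRNA-Val-TAC to tRNA-Val-CAC on the right, for each part of the tRNA, with 1 point per library. On the left the 3′ ends lie between 0.838 and 0.865 in every library and the 5′ ends spread from 0.609 to 0.743.

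The isoacceptors also differed in how far their CCA ends matched the genome, which lacks the tail. Of the CCA-end reads, 95.7% did not match the genome for tRNA-Val-TAC (range 93.3% to 99.0%), beside 33.2% for tRNA-Val-AAC (21.0% to 39.9%) and 34.6% for tRNA-Val-CAC (21.6% to 41.4%). The ranges of TAC and of the other two did not overlap, and the reason was not tested. Of all tRNA-Val reads that did not match the genome, CCA ends made up 94.8% for AAC, 95.0% for CAC and 98.2% for TAC. The listed 5′ and 3′ ends held 0 unmatched reads in every library, and at most 0.188% of the internal reads were unmatched. The CCA-end shares unmatched in other tRNAs ranged widely, with 11.2% for tRNA-Gly-GCC, 78.2% for tRNA-Glu-CTC and 0.348% for tRNA-Lys-CTT. By diet the tRNA-Val values were close, at 32.1% and 34.3% for AAC, 33.5% and 35.7% for CAC and 95.1% and 96.2% for TAC in CD-F0 and HFD-F0.

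The features whose level over the 10 libraries was most like that of each 5′ end, by Pearson's r of log2(RPM + 1) among 803 other features, differed between the members. They were the internal part of tRNA-Arg-CCG (r = 0.847), the 5′ end of tRNA-Ala-TGC (0.826) and the 3′ end of tRNA-Arg-CCT (0.820) for AAC. For CAC they were the 5′ end of the mitochondrial tRNA-Cys-GCA (0.926), the 5′ end of tRNA-His-GTG (0.903) and the CCA end of tRNA-Ile-AAT (0.899). For TAC they were the 5′ end of tRNA-Gln-TTG (0.840) and the 3′ ends of tRNA-Leu-AAG (0.828) and tRNA-Arg-TCT (0.819). No feature was named for more than 1 member. The mitochondrial tRNA-Val-TAC, a separate molecule encoded by the mitochondrial genome, was much rarer, at 80.4 to 161 RPM. Its 5′ end held 20.9% of its reads in CD-F0 and 30.3% in HFD-F0, and the log2 fold change of that 5′ end was 0.56 (SE 0.26, adjusted p = 0.470 in edgeR's test).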

How the data were processed

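Per the labels and the methods of the study, the authors made the small RNA libraries from sperm RNA of 18 to 30 nt and aligned clean reads with SPORTS (Bowtie, 1 mismatch allowed, mouse genome mm10) to the genome and then to sets of small RNA. They deposited estimated counts per class and sub-class without normalization. Versions of these tools are not given in the sources used here. Reads that matched and did not match the genome were added, and a feature that a file does not list was set to 0. Internal reads are the total of a tRNA minus its listed ends. RPM is relative to clean reads. The counts were rounded to whole numbers and fitted over all 1470 features with edgeR 4.0.16 (R 4.3.3): filterByExpr, TMM and the quasi-likelihood test, with the thresholds of the study and Benjamini-Hochberg adjustment over the 814 features that passed. DESeq2 1.42.0 was an alternative, and the fit was checked on simulated data. Other tests are exact permutations in Python 3.11.15 (numpy 2.4.6, scipy 1.17.1, pandas 2.3.3), two-sided, adjusted within each family of comparisons. The named features are all 12 tRNA-Val features, the 3 totals, 3 comparison tRNAs, the mitochondrial tRNA-Val and the 3 features most like each 5′ end. Members, lists and tests were chosen with earlier results of these data known. RefSeq also lists 2 tRNA-Val entries without a gene number, which were not used here. Genome-matched reads, other scalings, other filters, left-out samples and the replicate number as a block were tried as alternatives.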

Additional observations from a re-analysis of the deposited data

Results flagged for a closer look

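Of 62 sets of 5 libraries tested with Dixon's criterion at 95%, 1 held a library far from the others, and chance alone flags about 1 in 20. The total of tRNA-Val-CAC in HFD-F0 sample 1 was 6935 RPM, where the nearest other HFD-F0 sample had 8586 RPM and the gap took 0.743 of the range of the group. The 5′ end of tRNA-Val-CAC in that library, 3548 RPM, was also the lowest of the group. Without this library the difference between the diets in the tRNA-Val-CAC total was 493 RPM, in place of 120 RPM. For all tRNA-Val it was 537 RPM, in place of -20.7 RPM. Both are the upper ends of the ranges given for 1 sample left out.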

How the results depend on the processing

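The count of tRNA-Val features past the thresholds was 0 of those tested under each of the 18 alternatives, among them DESeq2. Of all features tested in a setting, 30 of 814 were called in the main fit. The number called ran from 14 of 248 (tsRNA features only) to 93 of 1467 (no filter). It was 50 of 827 without CD-F0 sample 5 and 19 of 729 with at least 10 counts in every sample. Over 37 results and 551 alternative values, 491 kept their direction and side of the threshold, 18 lost the call, 5 gained it and 37 changed sign without a call.
With only genome-matched reads, the 5′ end share of CAC exceeded that of AAC by 1.37 points and that of TAC by 2.81 points, no longer past adjustment, the CCA-end share of TAC differed by -0.0102 points between diets and its log2 fold change was -0.14. Over listed ends only, AAC exceeded TAC by 0.769 points, past adjustment, and the diet differences of the 5′ end share were 0.0386 points for AAC and 0.192 points for CAC. The diet difference of all tRNA-Val was 291 when taken over nuclear tRNA reads and 0.0095 on the log2(RPM + 1) scale. With tsRNA features only, the log2 fold changes of the AAC internal part and the TAC 5′ end were -0.0478 and -0.0767, and with at least 10 counts in every sample the AAC internal value was -0.0012. The cause of these shifts was not tested.
With 1 sample left out, the log2 fold changes ran from -0.0776 to 0.0881 (AAC internal), -0.0132 to 0.15 (CAC internal), -0.0025 to 0.11 (TAC internal), -0.0732 to 0.10 (TAC 5′ end), -0.32 to -0.16 (AAC 5′ end), -0.22 to -0.0308 (CAC 5′ end), -0.43 to -0.17 (AAC CCA end), -0.45 to -0.18 (CAC CCA end) and -0.0299 to 0.32 (TAC CCA end). The diet differences of the totals ran from -654 (without CD-F0 sample 1) to -40.9 RPM (without CD-F0 sample 4) for AAC, from -471 to 493 RPM for CAC, from 65.6 (without HFD-F0 sample 5) to 149 RPM for TAC and from -1031 to 537 RPM for all tRNA-Val. Those of the 5′ end shares ran from -7.03 to -2.58 points for AAC and from -6.35 to -1.53 for CAC, and those of the TAC shares from -3.22 to 1.20 points (5′ end), -0.141 to 0.361 (CCA end) and -1.57 to 3.08 (internal). The 5′ end share differences ran from 1.19 to 1.80 points (CAC minus AAC), 3.26 to 4.50 (CAC minus TAC), 1.86 to 3.12 (AAC minus TAC, past adjustment without HFD-F0 sample 5) and 10.6 to 18.2 (tRNA-Val minus tRNA-Glu-CTC, past adjustment without HFD-F0 sample 2 or 4). The log2 ratio of CAC to AAC 5′ ends differed by 0.0786 to 0.14 between diets.
The labels do not say that same-numbered samples were paired. The deviations of same-numbered samples correlated at 0.336, -0.0873, 0.246, -0.191 and -0.137. No such correlations were taken for samples with different numbers, so these values cannot decide whether the numbers pair the samples. With the number as a replicate block, 0 tRNA-Val features and 25 of 814 features were called, and the log2 fold change of the TAC 5′ end was -0.0101.
The 3′ end of TAC is limited by depth, and 3′ and CCA ends of AAC and CAC by divided reads. Divided reads also enter the 5′ ends and internal parts. The 5′ ends of AAC, CAC and TAC held whole numbers in 0 of 10 libraries. Comparisons of 5′ end shares and ratios between isoacceptors are therefore not comparisons of separately assigned reads. Fragment lengths were not analysed here.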
